A study of Sus scrofa with 32 samples.

Results

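Testes with high and with low levels of 2 Leydig cell transcripts were compared among 32 male pigs. The transcripts were INSL3, a peptide hormone of Leydig cells, and CYP17A1, the enzyme that turns C21 steroids into androgen precursors. A score was formed for each library as the mean of log2(CPM + 1) of both genes, where CPM is a gene's counts scaled to a common total of gene counts. Among the 24 libraries with fewer than 8000000 gene counts, the 8 with the highest score form the high-score group and the 8 with the lowest form the low-score group, so 16 of 32 libraries entered. The 8 libraries between them were kept as a middle set, and the 8 deeper libraries took no part in choosing the groups. The groups were thus chosen by the measured levels of INSL3 and CYP17A1 in the same libraries, so differences between them are given as a description without a test.

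All animals were Danish Duroc pigs crossed with Landrace/Yorkshire and slaughtered near 100 kg. Each pig ate a control diet or one with 15% chicory during the last 3 days before slaughter. The submitters also sorted pigs into High_AS and Low_AS, where AS stands for androstenone and skatole; these are written High AS and Low AS below. High AS counted 10 animals on the control feed and 7 fed chicory, Low AS counted 7 of each, and 1 animal fed chicory had no AS group. The high-score group held 3 High AS control pigs, 2 High AS chicory pigs, 1 Low AS control pig and 2 Low AS chicory pigs. The low-score group held 1 High AS control pig, 2 High AS chicory pigs, 2 Low AS control pigs, 2 Low AS chicory pigs and the pig with no AS group. The high-score pigs came from 6 sows and the low-score pigs from 7, and 2 sows had pigs in both groups, so some pigs share a mother.

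Leydig cells lie between the seminiferous tubules of the testis and are its source of androgens. Luteinizing hormone acts on them through its receptor LHCGR, cholesterol is brought in or made, and CYP11A1 in mitochondria cuts its side chain to give pregnenolone. CYP17A1 and its partner cytochrome b5, CYB5A, then act on pregnenolone, and in boars the same pair also gives rise to the 16-androstenes, among them androstenone, a steroid stored in fat. Sulfation of steroids needs the donor PAPS, which PAPSS2 makes, and sulfotransferases that use it. The tissue measured was whole testis, so in every comparison more Leydig cells and more RNA of these genes per cell cannot be told apart.

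The 24 shallower libraries held 1855174 to 5993637 gene counts and the 8 deeper ones 10585625 to 20349500. The 24 shallower libraries were all run in lane 6. All 8 deeper libraries carried the same first index sequence and a numbered name, which no shallower library had. Depth thus cannot be told apart from these traits. Of the deeper ones 6 were from High AS and 2 from Low AS pigs, and the 4 run in lane 7 were all High AS. Low AS chicory replicate 1, a high-score library, stood apart. Its mitochondrially encoded genes summed to 163094 CPM, where the next highest high-score library had 40167 CPM. The low-score libraries had 15544 to 52780 CPM of them and the deeper ones 56808 to 174056 CPM. Peritubular markers summed to 407 CPM in it, 105 to 192 CPM in the low-score libraries and 272 to 452 CPM in the deeper ones. The deeper libraries thus differed in composition from the low-score ones, and the reason was not tested. Elongating spermatid markers of Low AS chicory replicate 1 summed to 4213 CPM, the lowest of the high-score group, which reached 48345 CPM. The low-score libraries held 32187 to 71395 CPM. Other high-score libraries were also below that range, such as Low AS control replicate 5 with 15598.5 CPM and High AS control replicate 9 with 20173 CPM. Low AS control replicate 7 had the lowest score of all, 6.21, where the next lowest deeper library had 7.995. Counts and medians over genes that rest on either library are given with and without it.

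The score ran from 10.32 to 11.56 in the high-score group and from 8.26 to 9.48 in the low-score group. The mean difference was 1.72 log2 units. At the edges the groups were close to the middle set: the last high-score library, Low AS chicory replicate 1, had 10.32 and the first middle library 10.28. The last middle library had 9.64 and the first low-score library, Low AS control replicate 4, had 9.48. INSL3 measured 1159 CPM at the lowest, 1553 at the median and 2910 at the highest in the high-score group, and 331, 549 and 736 CPM in the low-score group. CYP17A1 measured 1219, 1624 and 3315 CPM in the high-score group, and 281, 636 and 800 CPM in the low-score group. Both genes separated the groups because they defined them. Both transcripts were found in every library, with at least 1131 counts for INSL3 and 1229 for CYP17A1.

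**Figure D1:**
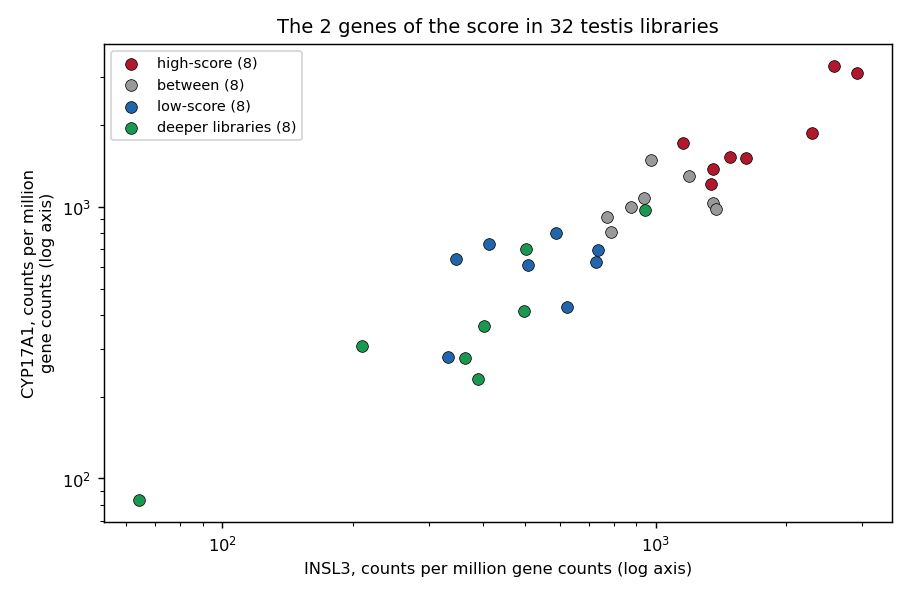
CPM of INSL3 (horizontal) against CYP17A1 (vertical) in each of the 32 libraries, both on log axes, with colours for the high-score, middle and low-score groups and the deeper libraries. High-score libraries have at least 1159 CPM of INSL3 and 1219 CPM of CYP17A1, and 1 deeper library, at 64.3 CPM of INSL3 and 83.0 CPM of CYP17A1, lies far below the others.

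A gene was said to follow the score when no high-score library overlapped a low-score library and the log2 fold between groups was at least 1. Values from here on are CPM scaled by TMM, a trimmed mean of log ratios that sets each library's effective size. Beside INSL3 and CYP17A1, 58 of 11466 genes were higher by this rule, which is 0.506%. RASA2, a GTPase-activating protein that switches off Ras, was the 1 gene that was lower, which is 0.00872%. Without a minimum fold, 84 genes were separated and higher (0.733%) and 19 were separated and lower (0.166%). These counts depend on single libraries and on how the groups were formed. Leaving out a library also makes the rule easier to meet, as fewer values can overlap. The 58 became 110 without the pig with no AS group, 108 without High AS chicory replicate 3, 38 with groups formed on INSL3 alone and 33 on CYP17A1 alone. The count of 1 was 8 when High AS chicory replicate 4 or High AS control replicate 5 was dropped and 7 when Low AS chicory replicate 6 was. It was 2 when High AS chicory replicate 3, High AS control replicate 6 or the pig with no AS group was dropped. It was 6 without a filter on low counts and 4 with a minimum CPM. In place of groups, a slope on the score over the 24 libraries gave 446 genes rising and 44 falling at an adjusted p under 0.05 in edgeR. That is another rule than the one behind the 58. The same score ranked these libraries, so the slope counts are a description and not a test. With sow as a block, added after seeing the data, the fold rests on the 2 sows with pigs in both groups. All 58 genes then had a fold above 0, which their choice fixed in advance, since none overlapped between the groups in these same libraries. By the rule 40 genes then followed upward and 0 downward. The median log2 fold of all 11466 genes was 0.03, and with library totals in place of TMM it was 0.15. Of the 58 genes, 42 had a symbol. With all 32 libraries scaled together, the median of the middle libraries lay between the medians of the outer groups in 57 of the 58. A high count was likely from the start, as these genes were chosen for outer groups that do not overlap. The share over all genes was not computed, so no conclusion is drawn from it. The p-values given later measure the spread between pigs, some of which share a sow.

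Among the genes of steroid synthesis, CYP11A1 and CYB5A followed the score. CYP11A1 measured 196 CPM at the lowest, 266 at the median and 517 at the highest in the high-score group. The low-score group had 56.2, 96.3 and 157 CPM, so every high-score library was above every low-score one, and the log2 fold was 1.63 ± 0.23 (SE, n = 8 and 8). CYB5A measured 910, 1385 and 2161 CPM against 423, 613 and 792 CPM, a log2 fold of 1.32 ± 0.19. These 2 genes act directly before and together with CYP17A1. FDXR, the reductase that feeds electrons to mitochondrial P450 enzymes, had a log2 fold of 1.27 ± 0.24 with overlap, as its lowest high-score library had 31.6 CPM and its highest low-score library 41.3 CPM. HSD11B2, which inactivates cortisol, had 1.55 ± 0.32, also with overlap.

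The later enzymes were less separated. HSD17B3, which makes testosterone from androstenedione, measured 100, 137 and 274 CPM in the high-score group and 53.3, 83.3 and 129 CPM in the low-score group, a log2 fold of 0.85 ± 0.23 with overlapping groups. SRD5A1, a steroid 5-alpha reductase, measured 45.5, 68.4 and 162 CPM against 21.7, 43.2 and 69.5 CPM, a log2 fold of 0.90 ± 0.25. The highest SRD5A1 value came from High AS chicory replicate 3. HSD17B11 had a fold below 0, at -0.69 ± 0.26. Of 15 genes in the list of steroidogenic enzymes and partners that could be tested, 13 had a fold above 0, where 52.3% of all genes did, and the list's median was 0.62. The list names 33 genes and 19 of them had an identifier in the tables.

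Markers of Leydig cells gave a mixed check of the grouping. LHCGR, the receptor that receives luteinizing hormone, measured 2.10, 7.90 and 18.4 CPM in the high-score group and 0.263, 2.05 and 3.73 CPM in the low-score group. Its log2 fold was 2.06 ± 0.39, and the groups overlapped. The low-score libraries held at most 4913114 gene counts, so their LHCGR values rest on few reads and the size of this fold is uncertain. NR5A1, the nuclear receptor that drives many steroidogenic genes, had 1.20 ± 0.33 and VCAM1, an adhesion molecule, had 1.26 ± 0.26, both with overlap. CYP4B1, a fatty acid hydroxylase, had 1.02 ± 0.33. FTL, the light chain of ferritin, was separated, at 982 to 1789 CPM against 617 to 953 CPM, with a log2 fold of 0.82 ± 0.17 that was under 1. ESR1, the estrogen receptor alpha, was at -0.74 ± 0.35 and STARD6, a lipid carrier of the testis, at -0.48 ± 0.20. Of 15 tested markers other than INSL3 and CYP17A1, 12 had a fold above 0, where 52.3% of all genes did. None met the rule for following the score, and the median was 0.70.

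**Figure D2:**
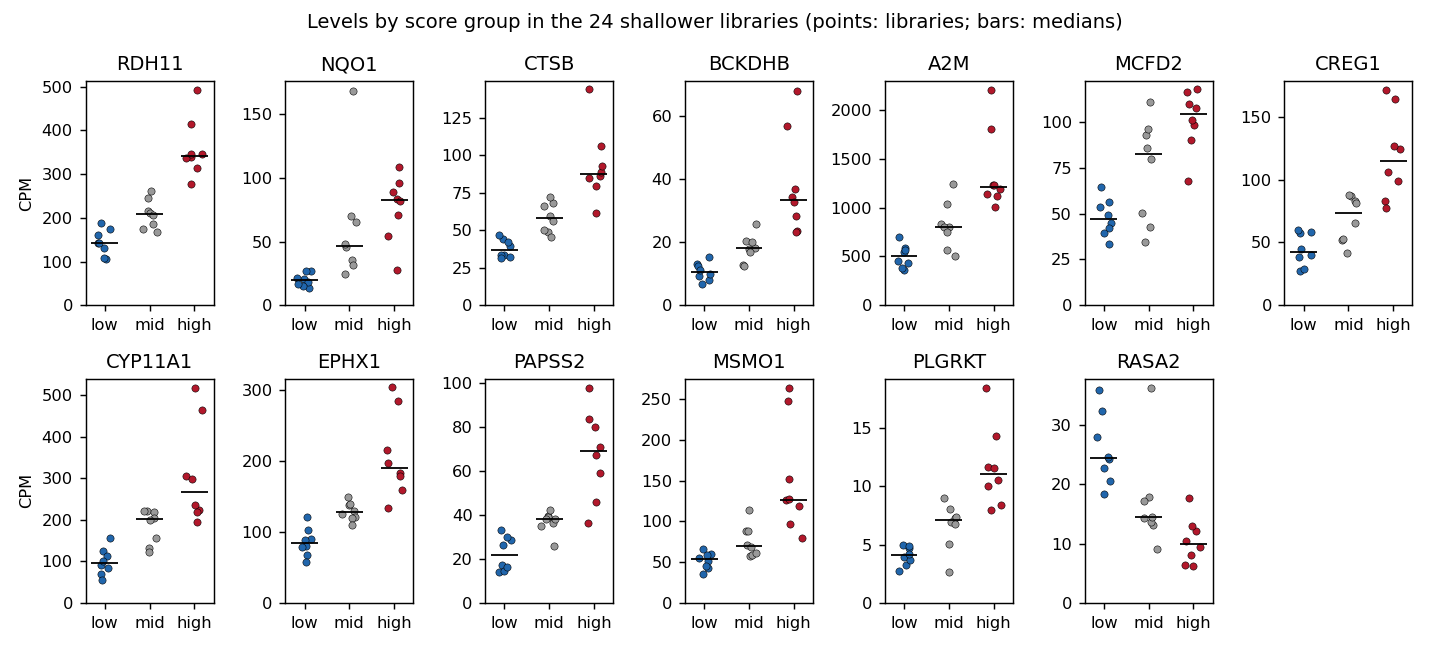
CPM of the 12 highest-ranked genes with a symbol that followed the score upward, and of RASA2, in the low-score, middle and high-score libraries (8 points each, bars are medians, linear axes from 0; middle libraries scaled with all 32, outer groups with each other). In each panel the outer groups do not overlap, and CYP11A1 has medians of 96.3 CPM and 266 CPM in them.

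The gene with the largest ratio of fold to its error was RDH11, a reductase of retinal. It measured 278, 342 and 494 CPM in the high-score group and 105, 142 and 187 CPM in the low-score group, a log2 fold of 1.32 ± 0.15. NQO1, a quinone reductase of the antioxidant response, measured 27.6, 82.6 and 108 CPM against 13.7, 19.7 and 26.9 CPM, a log2 fold of 1.94 ± 0.22. Its lowest high-score library and highest low-score library were nearly level. BCKDHB, a subunit of the mitochondrial complex that degrades branched-chain amino acids, had 1.82 ± 0.24. CTSB, a lysosomal protease, had 1.29 ± 0.16, and CREG1, a secreted glycoprotein of the endolysosomal system, had 1.42 ± 0.20. MCFD2, a cofactor of cargo transport out of the endoplasmic reticulum, had 1.07 ± 0.15.

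A2M, a large protease inhibitor, measured 1005, 1215 and 2207 CPM in the high-score group and 360, 503 and 699 CPM in the low-score group, a log2 fold of 1.44 ± 0.19. EPHX1, the microsomal epoxide hydrolase, had 1.27 ± 0.18, from 134 to 304 CPM against 58.0 to 122 CPM. PLGRKT, a plasminogen receptor, had 1.498 ± 0.22. RASA2, the gene that was lower, measured 6.29, 9.87 and 17.7 CPM in the high-score group and 18.4, 24.5 and 35.9 CPM in the low-score group. Its log2 fold was -1.29 ± 0.22, and -0.74 ± 0.38 with sow as a block.

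Genes of sulfation and of sterol supply were also among those that followed the score. PAPSS2 measured 36.3, 68.9 and 97.8 CPM in the high-score group and 14.2, 21.95 and 33.3 CPM in the low-score group, a log2 fold of 1.57 ± 0.22. SULT1C3, a cytosolic sulfotransferase, measured 397, 663 and 1205 CPM against 143, 230 and 349 CPM, a log2 fold of 1.60 ± 0.23. SUMF1, which activates sulfatases, had 1.04 ± 0.18. All 6 tested genes of the list of steroid sulfation and conjugation had a fold above 0, where 52.3% of all genes did. Their median was 0.75. In this list PAPSS2 and SUMF1 met the rule, where 0.506% of all genes did so upward, and SULT1C3 is not a member of it.

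In the list of cholesterol synthesis, uptake and storage, 25 of 30 tested genes had a fold above 0, where 52.3% of all genes did. The list's median was 0.62. The sum over the list overlapped widely between the groups. It was 2530 to 4051 CPM with a median of 3299 CPM in the high-score group, and 2739 to 3475 CPM with a median of 3016 CPM in the low-score group. MSMO1, a sterol methyl oxidase, measured 79.6, 127 and 264 CPM in the high-score group and 35.9, 53.6 and 65.8 CPM in the low-score group, a log2 fold of 1.54 ± 0.22. LIPA, the lysosomal lipase that frees cholesterol from its esters, had 1.38 ± 0.20. SCARB1, the receptor for high-density lipoprotein, had 1.23 ± 0.23 with overlap. The list was not uniform, since SQLE, a squalene epoxidase, had a log2 fold of 0.12 ± 0.13, and CYP51A1, a sterol demethylase, was at -0.48 ± 0.19.

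Markers of other cells of the testis also went with the grouping. All 20 tested markers of elongating spermatids had a fold below 0, with a median of -0.62. So did all 17 of round spermatids, with a median of -0.41, while 52.3% of all genes had a fold above 0. With library totals in place of TMM, 3 of the 17 round spermatid markers were above 0. The summed elongating spermatid markers ran from 4213 to 48345 CPM with a median of 28490 CPM in the high-score group. They ran from 32187 to 71395 CPM with a median of 41017 CPM in the low-score group. PRM1, a protamine that packs sperm DNA, had a log2 fold of -0.61 ± 0.40, and the groups overlapped.

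Of 12 tested Sertoli cell markers, 11 had a fold above 0, where 52.3% of all genes did, with a list median of 0.68. Their sum was 2274 to 7316 CPM in the high-score group and 1755 to 3957 CPM in the low-score group. All 10 tested fibroblast and matrix genes had a fold above 0, with a median of 0.98 and sums of 424 to 847 CPM against 180.0 to 385 CPM. COL3A1, a collagen of loose connective tissue, followed the score with 161 to 366 CPM against 48.6 to 147 CPM, and COL1A2 did so too. The log2 fold of COL3A1 was 1.24 ± 0.22, and 0.48 ± 0.39 with sow as a block. Of 6 tested endothelial markers, 5 had a fold above 0, and 4 of 4 macrophage and immune markers did. Epididymis and rete markers summed to 31.2 to 61.6 CPM against 29.4 to 59.8 CPM, and RNASE10, an epididymal gene, was at 0 in every library. The part these other cell types have in the followers of the score was not tested. Since levels of spermatid, Sertoli and matrix transcripts went with the grouping as well, the groups are called by their score and not Leydig-rich and Leydig-poor.

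Without Low AS chicory replicate 1, 61 genes followed the score upward and 51 of the 58 were among them. The list medians were then 0.50 for Leydig cell markers, 0.50 for Sertoli cell markers, -0.45 for elongating spermatid markers, -0.34 for round spermatid markers and 0.68 for matrix genes. The 13 mitochondrially encoded genes turned with that library, from a median of 0.41 with all 13 above 0 to a median of -0.30 with 0 above 0. Spermatogonia markers turned as well, from 0.32 to -0.06.

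**Figure D3:**
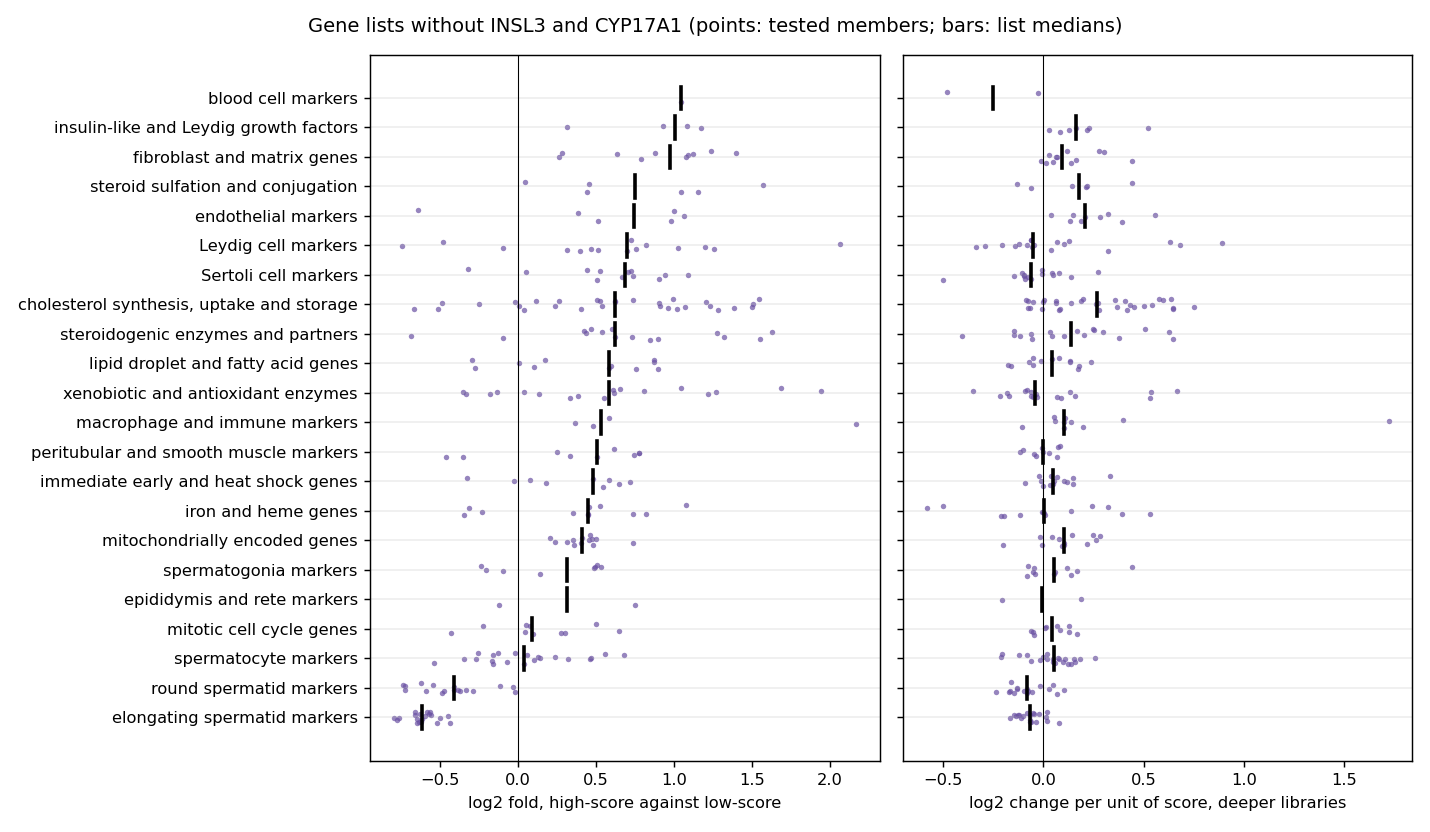
Each tested gene (points) of each gene list, with the list median as a bar; the left panel gives the log2 fold of high-score against low-score libraries and the right panel the log2 change per unit of score in the 8 deeper libraries. On the left, matrix genes have a median of 0.98 and elongating spermatid markers one of -0.62.

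The 8 deeper libraries took no part in the grouping. There each gene's log2 level was fitted against the score of the library, and the slope is the log2 change per unit of score. Their pigs were not unrelated to the score groups, as most had the same mother as a pig in them. The lowest and next lowest deeper scores, 6.21 and 7.995, came from pigs of the same sow. The fit had no term for sow, so its p-values take the pigs as independent. Slopes that go the same way as the folds are thus not a check in unrelated pigs. Of 14970 genes, 4 passed an adjusted p of 0.05 with a rising slope (0.0267%) and 0 with a falling one, by edgeR's quasi-likelihood test with Benjamini-Hochberg adjustment. At an unadjusted p under 0.05, 245 genes were rising (1.64%) and 139 falling (0.929%). DESeq2 called 37 rising and 1 falling, and limma voom 7 and 0.

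A2M rose with the score in the deeper libraries, with a slope of 0.69 ± 0.08 (SE) and an adjusted p of 0.0118 in edgeR. From the highest score to the lowest, A2M measured 772, 525.5, 394, 417, 367.5, 345, 227 and 133 CPM, so 1 neighbouring pair was out of order. SULT1C3 rose with a slope of 0.75 ± 0.10 and an adjusted p of 0.0350 in edgeR, and measured 464, 362, 352, 182, 237.5, 173, 141 and 76.2 CPM in the same order. MGARP, a mitochondrial protein of steroid-making tissues, rose with a slope of 1.12 ± 0.16 and an adjusted p of 0.0431 in edgeR. In the shallower libraries MGARP had a log2 fold of 1.37 ± 0.35 with overlapping groups. The fourth gene, ENSSSCG00000026109, had no symbol.

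INSL3 and CYP17A1 are themselves in that adjustment, although they make up the score. With both left out, a choice made after seeing the data, ENSSSCG00000026109 had an adjusted p of 0.0120 and A2M one of 0.0236, while SULT1C3 was at 0.0584 and MGARP at 0.0646 in edgeR. Without Low AS control replicate 7, the deeper library of lowest score, 0 genes passed in edgeR and 522 had an unadjusted p under 0.05. Over 20 alternatives, A2M lost its call in 3, SULT1C3 in 10 and MGARP in 12.

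All 58 genes that followed the score upward could be tested in the deeper libraries, and 55 had a slope above 0, or 94.8%, where 49.5% of all genes did. At an unadjusted p under 0.05, 22 of the 58 were rising, or 37.9%, against 1.64% of all genes. Their median slope was 0.24. Without Low AS control replicate 7 the counts were 52 and 21 of 58, where 47.8% of all genes had a slope above 0 and 1.96% were rising, and the median slope was 0.46. CYP11A1 had a slope of 0.63 ± 0.10 and an adjusted p of 0.0794 in edgeR, and CYB5A one of 0.25 ± 0.10. AGT, the precursor of angiotensin, had 0.81 ± 0.13, and ACSF2, a mitochondrial acyl-CoA synthetase, 0.75 ± 0.14; both are named after their values were seen. RPS4X, a ribosomal protein, was near 0 with 0.08 ± 0.11, and COL3A1 had 0.14 ± 0.17. RASA2 had a slope of -0.20 ± 0.18.

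**Figure D4:**
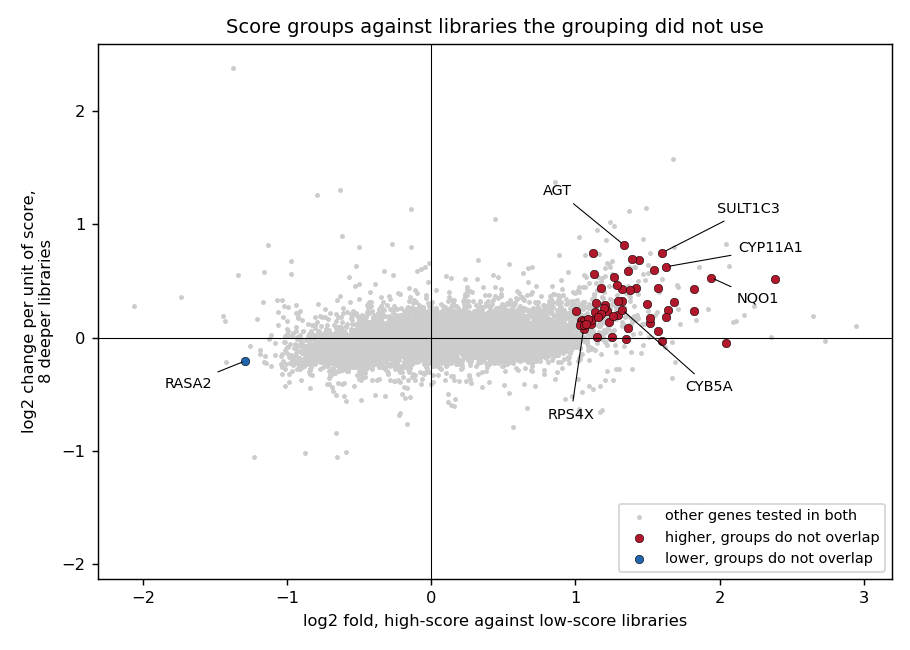
Log2 fold between the score groups (horizontal) against the slope per unit of score in the 8 deeper libraries (vertical) for each gene tested in both. Of the 58 red genes, which followed the score upward, 55 lie above 0 on the vertical axis, and RASA2 lies below it.

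By gene list, the deeper libraries gave the following counts, given for some of the 22 lists. Over all genes, 49.5% had a slope above 0 and 1.64% were rising at an unadjusted p under 0.05. Without Low AS control replicate 7 these shares were 47.8% and 1.96%. In the cholesterol list, 25 of 32 genes had a slope above 0 and 15 were rising at an unadjusted p under 0.05, none of which passed adjustment over all genes, and the median slope was 0.27. SCARB1 had a slope of 0.65 and IDI1, an early enzyme of isoprenoid synthesis, one of 0.75. CYP51A1 stood at -0.08. Without Low AS control replicate 7 the counts were 27 and 14 of 32, and the median slope 0.39. Sterol genes were not alone in this. Endothelial markers had 9 of 9 slopes above 0 (median 0.21), macrophage and immune markers 9 of 10 (0.10) and insulin-like and Leydig growth factors 7 of 7 (0.16). Without Low AS control replicate 7 these were 8 of 9 (0.52), 5 of 10 (-0.04) and 4 of 5 (0.33). Of the endothelial markers 3 were then rising at an unadjusted p under 0.05 in edgeR.

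In the list of steroidogenic enzymes, 12 of 18 had a slope above 0 and 5 were rising at an unadjusted p under 0.05. SRD5A1 had a slope of 0.51 ± 0.12 with an unadjusted p of 0.00106, which became 0.568 after adjustment in edgeR, and HSD17B3 one of -0.06. In the list of Leydig cell markers, 8 of 18 had a slope above 0, where 49.5% of all genes did, and the median was -0.05. As a list these markers thus did not rise with the score in the deeper libraries, although 3 were rising at an unadjusted p under 0.05. Those 3 were LHCGR with 0.63, VCAM1 with 0.68 and CYP4B1 with 0.89, while NR5A1 had 0.07. Without Low AS control replicate 7, 10 of 17 steroidogenic genes had a slope above 0 and 4 were rising, with a median of 0.06 where it had been 0.14. Of the Leydig cell markers 8 of 18 were then above 0, with a median of -0.04, and 1 was rising. Sertoli cell markers had 5 of 15 slopes above 0 and a median of -0.06. Elongating spermatid markers had 4 of 20 slopes above 0 with a median of -0.06, and round spermatid markers 4 of 17 with a median of -0.08. Fibroblast and matrix genes had 11 of 12 above 0 with a median of 0.09. None of these last 4 lists held a gene with an unadjusted p under 0.05. Without Low AS control replicate 7, elongating spermatid markers had 9 of 20 slopes above 0 and a median of -0.01, so the low share above rests on that library. Round spermatid markers then had 5 of 17 above 0 with a median of -0.12, and Sertoli cell markers 5 of 15 with a median of -0.19. Matrix genes had 10 of 12 above 0 with a median of 0.34, and 1 was rising at an unadjusted p under 0.05. The slope is per unit of score, so its size is not on the same scale as the fold between groups.

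Androstenone did not differ beyond the spread between pigs. It was measured at 0.49 mg/kg at the lowest, 1.18 at the median and 5.90 at the highest in the high-score group. The 7 low-score pigs with a concentration, all except the pig with no AS group, had 0, 1.00 and 7.77 mg/kg, so the groups overlapped over nearly their whole range. The means were 1.85 ± 1.81 mg/kg (SD, n = 8) and 1.77 ± 2.73 mg/kg (SD, n = 7), a difference of 0.0746 mg/kg with a 95% interval of -2.48 to 2.42 mg/kg (exact two-sided permutation test, p = 0.937). The difference was 1.07 mg/kg without High AS control replicate 10, which had 7.77 mg/kg, and -0.504 mg/kg without High AS chicory replicate 3, which had 5.90 mg/kg. Of the high-score pigs 5 of 8 were High AS, and of the low-score pigs 3 of 7 (odds ratio 2.10, 95% interval 0.189 to 27.6, Fisher's exact test, p = 0.619).

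Diet was likewise spread over both groups. Chicory had been fed to 4 of 8 high-score and 5 of 8 low-score pigs (odds ratio 0.620, 95% interval 0.0533 to 6.42, Fisher's exact test, p = 1). Carcass weight was 91.9 ± 2.77 kg and 89.6 ± 7.44 kg (SD, n = 7 and 7), a difference of 2.23 kg with an interval of -4.00 to 8.80 kg (exact permutation test, p = 0.512). The sires' breeding value for androstenone had means of -0.0813 and -0.106 (exact permutation test, p = 0.871). Some pigs of the same sow had the same breeding value, while the permutation and Fisher tests took all pigs as independent. Reads assigned to no gene made up 32.0% and 30.3% of the libraries (exact permutation test, p = 0.508). With Benjamini-Hochberg adjustment over the 8 measures tested, every p was 1. The interval for androstenone reaches past the size of either group mean in both directions.

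**Figure D5:**
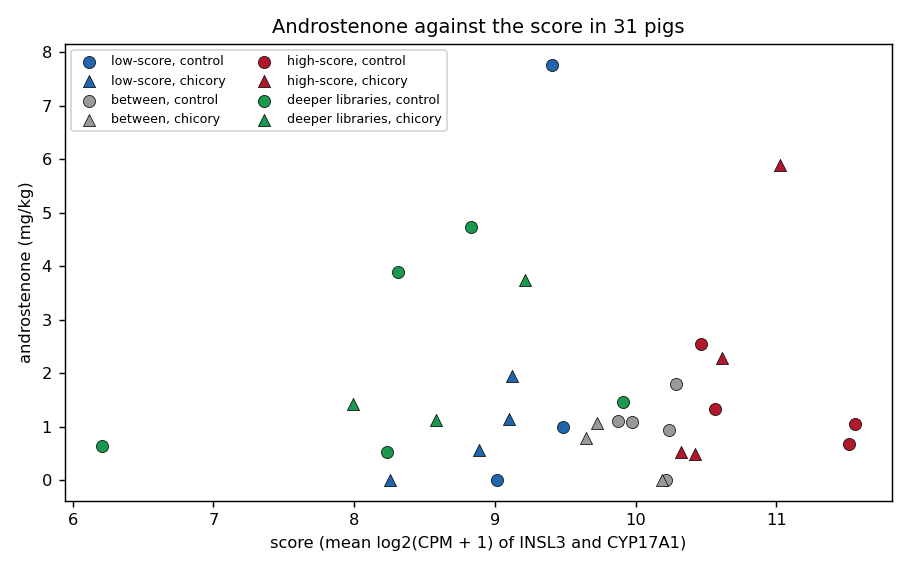
Androstenone in mg/kg (vertical) against the score (horizontal) for the pigs with a concentration, with colours for the groups, circles for control diet and triangles for chicory. In the high-score and low-score groups, 1 pig each lies far above the others of its group, at 5.90 and 7.77 mg/kg.

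Across all shallower libraries with a concentration, the score and androstenone had Pearson's r of 0.12 (n = 23, permutation p = 0.580) and Spearman's rho of 0.25 (permutation p = 0.257). Without the 2 libraries farthest from the median score r was 0.08. In the deeper libraries r was 0.39 (n = 8, exact permutation p = 0.369) and rho 0.57 (exact permutation p = 0.151), and r was 0.59 without the 2 farthest. For carcass weight r was 0.34 in the shallower libraries (n = 21, permutation p = 0.127) and -0.01 without the 2 farthest, so that value rests on them. Adjusted over the 4 relations, the p of r ran from 0.509 to 0.721.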

How the data were processed

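Messenger RNA of whole testis was measured in 32 pigs with stranded TruSeq libraries, per the labels' protocols. The authors deposited whole-number read counts per Ensembl gene, without normalization. The submitters' processing notes name HTSeq 0.6.0, SAMtools 1.3.1, STAR, cutadapt 1.8.1 and Trimmomatic 0.33. Build, annotation and strand setting are not given in the sources used here; reads of overlapping or antisense genes therefore cannot be told apart. A symbol was found for 11804 of 25322 identifiers. The 5 rows for reads given to no gene were left out (20.6% to 39.6% of a library's reads fell in no gene). No 2 libraries of a group agreed within sampling noise (108 pairs, smallest chi-square per degree of freedom 7.24).

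The score used library totals. Folds and slopes were fitted with edgeR 4.0.16 in R 4.3.3 (filterByExpr, TMM, quasi-likelihood test, Benjamini-Hochberg at 0.05), on counts as deposited. The fold used the 16 libraries of both groups and the slope the 8 deeper libraries. DESeq2 1.42.0, limma 3.58.1 with voom, other filters, scalings, scores and left-out libraries were alternatives. The procedure was also run on simulated counts with known changes. These held no shift in cell composition and no shared sow, so they cannot show how either affects the results. Labels were compared with exact permutation tests (intervals hold the shifts these tests did not reject at 95%) or Fisher's exact test, and correlations of 10 or more pigs with 100000 permutations.

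The score groups and the 22 gene lists were chosen with earlier results of these data known. Of 465 listed genes, 150 had no identifier under their symbol and are not analysed here. Genes were named if they belonged to the steroidogenic or Leydig cell list, were among the 12 with the largest ratio of fold to SE in a direction, were among the 10 with the smallest p of those called in the deeper libraries, or were SRD5A1, CYP4B1, CYP2E1 or FTL. Other names, such as members of the sulfation, cholesterol and cell type lists, were chosen after their values were seen.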

Additional observations from a re-analysis of the deposited data

Results flagged for a closer look

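Single libraries far from the rest of their group were looked for in 147 sets of values (Dixon's test at 95%), and 16 were found. Chance alone gives about 1 in 20. In the high-score group, High AS chicory replicate 3 had androstenone of 5.90 mg/kg, where the next pig had 2.55, and SRD5A1 of 162 CPM, where the next library had 88.9. The sire of High AS control replicate 5 had a breeding value of -0.490, where the next lowest was -0.120. Low AS chicory replicate 1 had the highest summed mitochondrially encoded genes (163094 CPM, next 40167), peritubular markers (407 CPM, next 234) and spermatogonia markers (409 CPM, next 293).

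In the low-score group, High AS control replicate 10 had androstenone of 7.77 mg/kg, where the next pig had 1.94. The pig without an AS group had summed Sertoli cell markers of 3957 CPM, where the next library had 2605. Low AS chicory replicate 6 had summed mitotic cell cycle genes of 1079 CPM, where the next had 856.

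In the deeper libraries, High AS control replicate 8, the one with the highest score, stood above the others for 4 genes that followed the score. CREG1 was at 80.1 CPM (next 36.6), MSMO1 at 131 CPM (next 73.6), PAPSS2 at 76.1 CPM (next 45.6) and RDH11 at 235 CPM (next 136). Its summed sulfation and conjugation genes were 135 CPM, where the next had 97.0. High AS control replicate 3 had CYP2E1, a P450 that breaks down skatole, at 42.1 CPM, where the next had 12.05. Low AS control replicate 3 had the lowest summed cholesterol genes, 2218 CPM, where the next lowest had 2918.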

How the results depend on the processing

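The count of 58 genes that followed the score upward was 38 with groups formed on INSL3 alone and 33 on CYP17A1 alone. A slope over 24 libraries in place of groups gave 446 at an adjusted p under 0.05 in edgeR. That is another rule, applied to libraries ranked by the same score, and serves as a description only. Leaving out single libraries, which leaves fewer values that can overlap, gave 55 to 110. It was 108 without High AS chicory replicate 3 and 110 without the pig with no AS group. The single gene that followed downward became 6 without a filter, 4 with a minimum CPM and 44 with the slope, and 1 to 8 with single libraries left out. The count was 8 when High AS chicory replicate 4 or High AS control replicate 5 was left out and 7 when Low AS chicory replicate 6 was. It was 2 when High AS chicory replicate 3, High AS control replicate 6 or the pig with no AS group was left out. The 4 rising genes in the deeper libraries became 10 with library totals, 7 with a minimum CPM, 37 with DESeq2, 7 with voom and 7 over the 16 libraries outside the groups. They became 2 with lane as a term and 2 with INSL3 and CYP17A1 outside the adjustment, both added after seeing the data. Single libraries left out gave 0 to 4, with 2 without High AS control replicate 3, 1 without High AS control replicate 8 and 0 without Low AS control replicate 7. The 0 falling genes became 2 without a filter, 1 with DESeq2 and 1 with diet as a term, and 0 to 0 with single libraries left out. The difference in androstenone was -0.309 mg/kg with INSL3 groups, -0.0291 mg/kg with a TMM score and -0.504 to 1.07 mg/kg with single pigs left out. The other label differences, with single pigs left out, ran from -0.0119 to 3.87 kg for carcass weight, -0.0298 to 0.0916 for the sire breeding value, -21.4 to -5.36 percentage points for chicory and 12.5 to 29.2 for High AS. With single libraries left out, the slope of HSD17B3 ran from -0.23 to 0.18 and that of NR5A1 from -0.011 to 0.16. HSD17B3 turned without Low AS control replicate 7, and NR5A1 turned without it and without High AS chicory replicate 2. Over 20 alternatives the adjusted p of A2M ran from 1.88e-13 with DESeq2 to 0.517 without Low AS control replicate 7, which also gave the highest values of SULT1C3 (0.535) and MGARP (0.517). The cause of these shifts was not tested. With sow as a block, added after seeing the data, 40 genes followed upward and 0 downward, with 4 residual degrees of freedom. No analysis paired by replicate number was possible because these numbers follow accession order and pair no pigs. With 8 pigs a group and 8 deeper libraries, small changes are not detectable.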

Other observations

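Further genes followed the score upward, named here after their values were seen. HLA-DRA, a chain of the antigen-presenting class II complex, measured 17.3 to 66.1 CPM in the high-score group and 6.30 to 16.9 CPM in the low-score group, a log2 fold of 1.64 ± 0.25 with a slope of 0.25 ± 0.16 in the deeper libraries. VIM, an intermediate filament of mesenchymal cells, measured 250 to 525 CPM against 134 to 232 CPM, a log2 fold of 1.19 ± 0.17. PRDX3, a mitochondrial peroxidase, had 1.14 ± 0.19 and CAT, the catalase of peroxisomes, 1.04 ± 0.18. PGRMC1, a heme-binding partner of P450 enzymes, measured 173 to 492 CPM against 90.7 to 169 CPM, a log2 fold of 1.11 ± 0.21. PGD, an enzyme of the pentose phosphate pathway that yields NADPH, had 1.16 ± 0.17. TPP1, a lysosomal peptidase, had 1.26 ± 0.27.

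CYP2E1 did not follow the score, with 2.10 to 7.83 CPM in the high-score group and 3.45 to 8.66 CPM in the low-score group and a log2 fold of -0.13 ± 0.28. GSTO1, a glutathione transferase, overlapped between the groups with 1.22 ± 0.24 and had a slope of 0.66 in the deeper libraries (unadjusted p = 0.000230, adjusted p = 0.191 in edgeR).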
